A study of Mus musculus with 2 samples.

Results

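The Obox genes are oocyte-specific homeobox genes, and the members described here are the genes whose symbol in the deposited table is Obox followed by a number. Of the 11262 genes of the table, 4 met this rule, namely Obox1, Obox2, Obox5 and Obox7, and all 4 had at least 1 TPM in either library and were compared. TPM is a proportion, the transcripts of a gene per 1000000 transcripts of the same library, corrected for how long the gene is. RNA of the second polar body (PB2) was compared with RNA of the zygote from which it had been separated, both from C57BL/6 mouse embryos at the late 1-cell stage. Each kind was sequenced as 1 library of pooled material, so there is no replicate error and no test was run. Every difference given here is a description of these 2 libraries. The labels give no knockout, transgene or drug, and both libraries share strain, stage and culture. Per the methods of the study, females were superovulated with hormones. The zona pellucida was removed in acid, and PB2 was split off by pipetting in trypsin. The mRNA was amplified as full-length cDNA before sequencing, TPM holds no record of read number, and the depth of both libraries is unknown. TPM compares proportions only, and in pooled material fewer cells of a type and less RNA per cell cannot be told apart.

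Obox proteins carry a homeodomain, a DNA-binding fold shared by many regulators of transcription. In the mouse the family lies in a cluster of close copies on chromosome 7. Obox1, Obox2, Obox5 and Obox7 are known as maternal members, whose mRNA is stored in the growing oocyte, whereas Obox3 is known as a member transcribed by the embryo itself. Embryos lacking Obox genes are known to activate their own genome poorly. The annotation of the mouse assembly GRCm38 lists 7 numbered Obox genes, all protein coding, and the 3 that are not in the table (Obox3, Obox6 and Obox8) were not analysed here. It also lists 48 Obox pseudogenes, 46 of them on chromosome 7, and 0 of them are in the table.

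All 4 members lie on the plus strand of chromosome 7 of GRCm38, within 1100 kb. Obox7 (ENSMUSG00000055942) spans chr7:14659496-14665996, Obox2 (ENSMUSG00000074369) chr7:15388721-15398545, Obox1 (ENSMUSG00000054310) chr7:15388948-15556866 and Obox5 (ENSMUSG00000074366) chr7:15750131-15759800. The annotated Obox1 therefore reaches across Obox2, and both share 59 exonic nucleotides at chr7:15388948-15389006. The longest protein-coding transcript of each member has 4 exons. The coding sequence, without the stop codon, has 612 nucleotides in Obox1, 453 in Obox2, 873 in Obox5 and 654 in Obox7. How alike the copies are is shown by the second coding exon, in which the homeobox begins. The exon is printed from the GENCODE M21 transcripts, plus strand, with capitals where a base differs from Obox1.
Obox1: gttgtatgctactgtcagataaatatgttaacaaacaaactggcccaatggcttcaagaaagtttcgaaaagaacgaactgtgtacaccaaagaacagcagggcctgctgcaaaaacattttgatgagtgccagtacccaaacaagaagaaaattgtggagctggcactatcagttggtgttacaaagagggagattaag
Obox2: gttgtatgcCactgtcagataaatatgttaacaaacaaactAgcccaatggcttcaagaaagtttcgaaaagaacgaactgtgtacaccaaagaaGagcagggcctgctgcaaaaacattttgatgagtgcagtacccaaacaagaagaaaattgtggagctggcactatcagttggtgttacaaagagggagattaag
Obox5: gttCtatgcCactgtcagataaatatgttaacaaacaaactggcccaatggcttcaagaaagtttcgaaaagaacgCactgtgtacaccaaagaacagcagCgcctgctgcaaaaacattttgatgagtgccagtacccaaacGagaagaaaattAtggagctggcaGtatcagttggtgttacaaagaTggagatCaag
Obox7: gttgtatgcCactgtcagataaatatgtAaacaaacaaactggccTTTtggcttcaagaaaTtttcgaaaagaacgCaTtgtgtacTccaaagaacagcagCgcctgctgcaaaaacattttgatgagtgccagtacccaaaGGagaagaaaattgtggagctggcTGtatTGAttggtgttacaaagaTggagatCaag
The exons lie at chr7:15555505-15555704 (Obox1), chr7:15397188-15397386 (Obox2), chr7:15757879-15758078 (Obox5) and chr7:14664380-14664579 (Obox7). Obox2 differs from Obox1 at 3 bases, Obox5 at 9 and Obox7 at 19. The exon has 199 nucleotides in Obox2 against 200 in the other members, so the annotated reading frame of Obox2 shifts within it relative to the other members, and the Obox2 coding sequence is the shortest of the 4.

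The coding sequences were aligned pairwise, and identity was taken over the aligned bases only, with gaps and overhanging ends left out. Obox1 and Obox2 were 98.5% identical over 453 bases, and Obox5 and Obox7 96.0% over 654. Obox1 and Obox5 were 95.6% identical over 612 bases, and Obox2 and Obox5 95.1% over 453. Obox7 was the member least like Obox1 and Obox2, with 93.8% and 92.9% identity. Such copies can compete for the same reads. The longest transcript of each member was cut into all windows of 50, 100 or 150 nucleotides, and a window was called its own if it occurred, on either strand, in no annotated transcript of another gene. For Obox5, 87.0% of 50-nucleotide windows, 99.9% of 100-nucleotide windows and 100% of 150-nucleotide windows were its own. Obox7 was nearly as separable, with 79.8%, 97.3% and 100%. For Obox1 the shares were 40.7%, 59.1% and 68.6%, and for Obox2 37.0%, 57.5% and 67.3%. At 100 nucleotides, each shared window of Obox1 and Obox2 was shared between these 2 genes. Read length, and how the authors counted reads that match more than 1 gene, are not given in the sources used here. The split of TPM between Obox1 and Obox2 is therefore uncertain, and both values may be too low if shared reads were left uncounted. Their sum is given beside their single values, and removes only the uncertainty of the split.

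**Figure D1:**
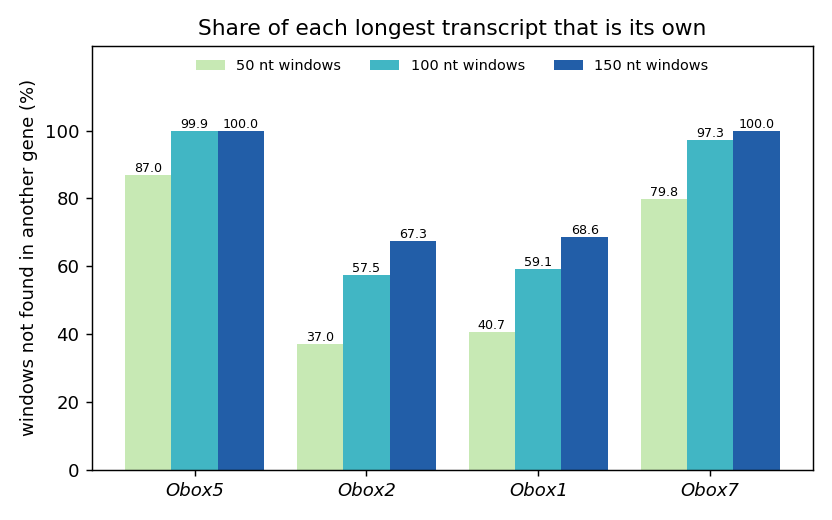
Percentage of windows of the longest transcript of each Obox member (y axis) that occur in no transcript of another gene, for windows of 50, 100 and 150 nucleotides (bars). Obox5 and Obox7 reach 100% at 150 nucleotides, while Obox1 and Obox2 stay at 68.6% and 67.3%.

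The annotated promoter windows were close copies of each other too. These RefSeq windows (GRCm38.p6) reach from 250 bases before to 50 bases after the annotated start. The aligned parts were 100% identical between Obox1 and Obox2, over 203 bases, and 97.1% between Obox5 and Obox7, over 274. A run of 44 bases was identical in all 4 windows. The GENCODE genes of Obox2, Obox5 and Obox7 begin inside their windows, and the Obox1 window lies inside its gene. Much of this sequence is therefore annotated there as part of the genes and is not separate promoter sequence. The letters TATATAA, which resemble the TATA element that positions transcription starts, were found in the windows of Obox1, Obox5 and Obox7, in a stretch that is the same in each and is printed here once, with TATATAA in capitals.
Obox1, Obox5 and Obox7: gtttgcagagaTATATAAgggcaggtcttc
It lies at chr7:15547227-15547256 for Obox1, chr7:15750328-15750357 for Obox5 and chr7:14659692-14659721 for Obox7, on the plus strand. The letters begin 19, 31 and 5 bases before the annotated RefSeq start of Obox1, Obox5 and Obox7. In GENCODE, whose starts differ, they fall inside the first exon of Obox1 and Obox7. Searched on both strands, they occur in 3.24% of the 32851 promoter windows of the genome table. The Obox2 window ends upstream of where its copy of the stretch would be, and its annotated longest transcript holds the same letters from nucleotide 209 on. Of 3 further motifs searched on both strands, TAATCC, which homeodomains of the Otx and Crx type bind, and TAATTG, the element of the oocyte homeodomain factor Nobox, were in 0 of the 4 windows and in 2320 and 2628 of all windows. CANNTG, the E-box read by helix-loop-helix factors such as Figla, was found in each of the 4 windows and in 72.3% of all windows. TATATAA overlaps none of the other motifs, and a match describes letters, not a site in use.

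Transcripts of the Obox members were among the most abundant of the zygote, and all 4 had a lower TPM in PB2. Obox5 had 7882.8 TPM in the zygote, where it ranked 13 of the 11262 genes, and 4652.4 TPM in PB2, where it ranked 21. Obox2 had 6332.5 TPM in the zygote (rank 20) against 3940.8 in PB2 (rank 26). Obox1 had 6213.6 TPM in the zygote (rank 21) against 3520.2 in PB2 (rank 29). These 3 members stood close together in both libraries, and in each the zygote value was the higher one. Obox7 was the least abundant member and the one furthest apart between the libraries, with 1171.3 TPM in the zygote (rank 115) against 387.2 in PB2 (rank 331). The order Obox5, Obox2, Obox1, Obox7 was the same in both libraries, but without replicates it cannot be said which neighbours in it differ beyond their spread. Obox1 and Obox2, next to each other in that order, are also the pair whose reads are hardest to separate. If shared reads were left uncounted, more would be missing from Obox1 and Obox2 than from Obox5 or Obox7. The first place of Obox5 and the ranks of the members may depend on this, which was not tested.

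**Figure D2:**
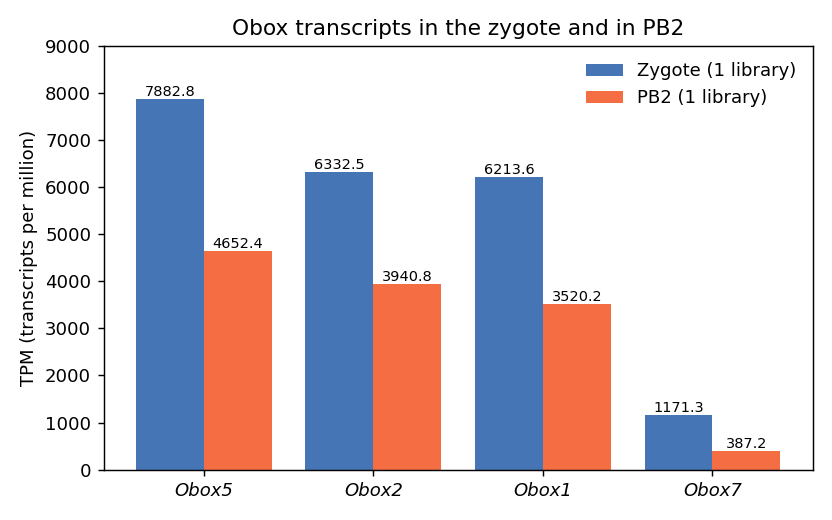
TPM (y axis) of the 4 Obox members in the zygote library and in the PB2 library, 1 library each, so the bars carry no error. Each member is lower in PB2, from 7882.8 to 4652.4 TPM for Obox5 and from 1171.3 to 387.2 TPM for Obox7.

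Differences between the libraries were expressed as the log2 ratio, log2((PB2 TPM + 1)/(zygote TPM + 1)), which is negative where PB2 is lower. The log2 ratio was -0.68 for Obox2, -0.76 for Obox5, -0.82 for Obox1 and -1.59 for Obox7. In linear terms the zygote TPM was 1.61 times the PB2 TPM for Obox2, 1.69 times for Obox5, 1.77 times for Obox1 and 3.03 times for Obox7. At these levels the rounding of the deposited values to 1 decimal hardly matters, since for Obox7 it allows a zygote-to-PB2 ratio from 3.02 to 3.03. At least 2-fold lower in PB2 was 1 of the 4 members, Obox7, against 8.09% of the 10645 genes compared, and 0 members were at least 2-fold higher, against 18.9% of all genes. All 4 were lower in PB2 by some amount, as were 40.0% of all genes compared, and at least 1.5-fold lower were 4 of 4, against 18.1%. At least 1.5-fold higher were 0 members, against 34.2% of all genes. At least 4-fold lower were 0 members, against 0.695%, and at least 4-fold higher 0, against 2.48%. With all log2 ratios centred on the median of all genes, Obox1 joined Obox7 at 2-fold lower, against 12.1%. The median log2 ratio was -0.79 over the members and 0.21 over all genes compared.

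Summed over the members, Obox transcripts made up 21600 TPM in the zygote against 12501 in PB2, which is 2.16% and 1.25% of a full library. The zygote sum was 1.73 times the PB2 sum. Obox1 and Obox2 together had 12546 TPM in the zygote against 7461 in PB2 (log2 ratio -0.75). This value does not rest on how reads were divided within the pair, but any shared reads left uncounted would be missing from it. The log2 ratios of Obox1, Obox2 and Obox5 spanned 0.14. That of Obox7 differed from their median of -0.76 by -0.83. Obox7 supplied 5.42% of the summed Obox TPM in the zygote and 3.10% in PB2. Obox5 supplied 36.5% and 37.2%, Obox2 29.3% and 31.5%, and Obox1 28.8% and 28.2%. These shares too would differ if shared reads were left uncounted. Obox5 had 6.73 times the TPM of Obox7 in the zygote and 12.02 times in PB2.

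The members were set beside genes of like level, since few genes are this abundant. Apart from the members, 162 genes had a mean of log2(TPM + 1) over both libraries within the range spanned by the Obox members. Their median log2 ratio was -0.29, so the abundant genes as a group were lower in PB2 than the table as a whole. Of these genes 104, or 64.2%, were lower in PB2 by some amount and 24, or 14.8%, at least 2-fold. Below the log2 ratio of Obox2, the highest member, lay 44 of them, or 27.2%, and below that of Obox7 lay 1. Over all genes compared, 1.74% had a lower log2 ratio than Obox7, 11.4% than Obox1, 12.8% than Obox5 and 15.1% than Obox2. In the plot against level, Obox1, Obox2 and Obox5 sit inside the band of abundant genes, and Obox7 sits at its lower edge.

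**Figure D3:**
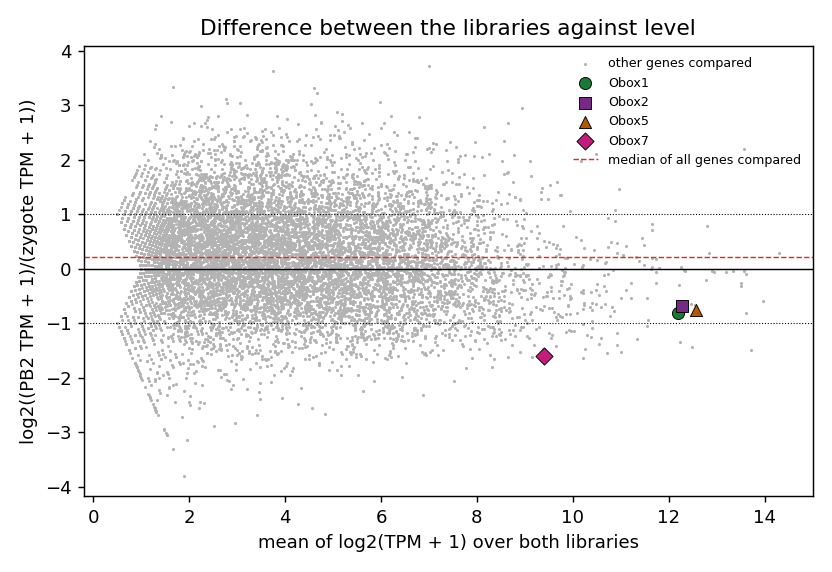
Log2 ratio of PB2 over zygote (y axis) against the mean of log2(TPM + 1) over both libraries (x axis) for the 10645 genes compared (grey) and the 4 Obox members (coloured). Dotted lines mark 2-fold, the dashed line the median of all genes at 0.21, and Obox7 lies lowest of the members at -1.59.

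By a rule of nearness in log2(TPM + 1) of both libraries, the genes most like Obox5, the most abundant member, were Ldhb, Pttg1 and Obox2. Ldhb, a lactate dehydrogenase subunit, had 7524.6 TPM in the zygote against 4725.4 in PB2, at a distance of 0.071. Pttg1, the securin that holds back separase, had 7053.7 and 4516.6 TPM, at a distance of 0.17. Obox2 stood at 0.40. With 2 libraries the likeness rests on 2 values for each gene.

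The Obox transcripts are poor in GC, and genes of like GC content had a lower median log2 ratio than all genes compared (0.21 over all). The longest coding transcript has a GC content of 41.9% in Obox5, 42.3% in Obox7, 42.6% in Obox2 and 43.1% in Obox1, against a median of 49.1% over the 10606 genes with a coding transcript in the annotation. Of those genes, 12.1% had a lower GC content than every Obox member. The loess trend of the log2 ratio on GC content stood between -0.24 and -0.18 at the members. The other 520 genes with a GC content in the members' range had a median log2 ratio of -0.20, and 15.0% of them were at least 2-fold lower in PB2. With the trend removed, the log2 ratio was -0.48 for Obox2, -0.52 for Obox5, -0.64 for Obox1 and -1.38 for Obox7. Each member thus lay below the trend, Obox7 by more than 2-fold, and the part of GC content in the differences was not tested.

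**Figure D4:**
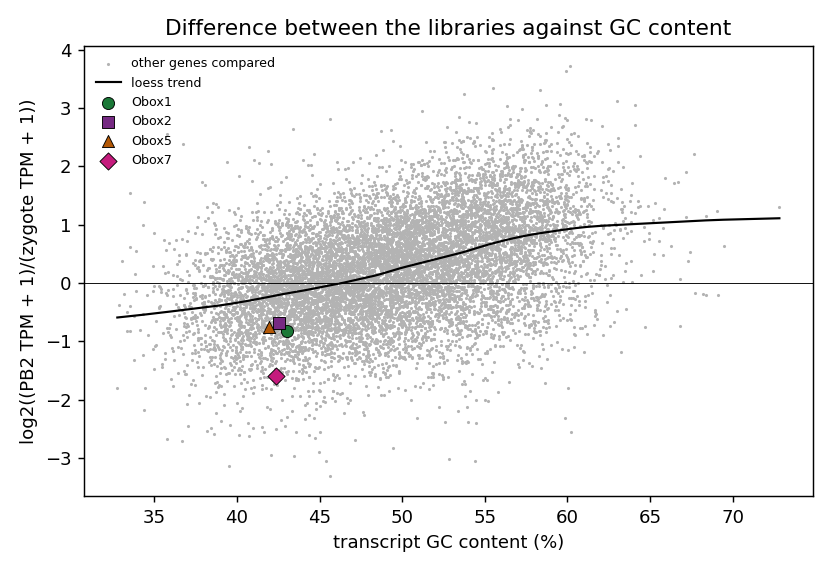
Log2 ratio of PB2 over zygote (y axis) against the GC content in percent of the longest coding transcript (x axis), with the loess trend over 10606 genes (line) and the Obox members (coloured). The members lie between 41.9% and 43.1% GC and below the trend.

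Homeobox genes outside the family were taken from a list of genes of the oocyte and early embryo. The list also holds Arid3a, whose DNA-binding domain is not a homeodomain, and the counts, median and sum given here include it. Of the 40 listed, 21 are in the table and 20 were compared, with a median log2 ratio of 0.51. At least 2-fold lower in PB2 was 1 of the 20, Pknox1, a cofactor of Hox proteins, with 1.9 TPM in the zygote against 0.4 in PB2. At least 2-fold higher in PB2 were 6 of the 20. Over all genes compared the shares were 8.09% lower and 18.9% higher. Among them Lhx8, a LIM homeobox factor needed for follicle formation, had 42.0 TPM in the zygote against 147.7 in PB2. Pou5f1, the pluripotency factor Oct4, had 12.2 and 80.0 TPM. Zfhx3 had 2.9 and 8.3 TPM, Otx1 2.3 and 6.9 TPM and Arid3a 1.1 and 3.2 TPM, so these differences rest on low values. The whole list summed to 965 TPM in the zygote against 1242 in PB2, less than Obox7 alone in the zygote and more than Obox7 in PB2. Its genes are therefore not at a level like that of the Obox members. Meis2, the most abundant of them, had 535.2 TPM in the zygote against 465.1 in PB2 (log2 ratio -0.20).

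A list of 25 oocyte transcription regulators, of which 19 were compared, had a median log2 ratio of 0.40 (Lhx8 and Nobox are in both lists), with 2 genes at least 2-fold lower in PB2 (10.5%, against 8.09% of all genes) and 7 at least 2-fold higher (36.8%, against 18.9%). The 2 lower genes were Dppa3, which protects the maternal genome from demethylation, with 22562 TPM in the zygote against 8070 in PB2, and Tbpl2, the TATA-binding factor of the oocyte, with 33.9 and 14.4 TPM. The 5 most abundant of the higher genes were Klf17 (543.0 TPM in the zygote against 1386.8 in PB2), Ctcf (55.9 and 150.6 TPM), Lhx8, Sall4 (56.6 and 147.1 TPM) and Yap1 (45.4 and 144.3 TPM). Klf17 is a Krüppel-like factor of the oocyte and early embryo, Ctcf an architectural protein of chromatin, Sall4 a zinc finger factor of stem cells and Yap1 the effector of Hippo signaling. Nobox, which acts on oocyte genes, had 223.5 TPM in the zygote against 312.0 in PB2 (log2 ratio 0.48).

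Genes known to be switched on with the embryonic genome, the process in which Obox factors take part, formed a further list. Of its 34 genes, 13 are in the table, with a median log2 ratio of -0.26. The median is the value of Zscan4c, with 2.0 TPM in the zygote against 1.5 in PB2. At least 2-fold lower in PB2 were 6 of the 13, against 8.09% of all genes compared, and 1 was at least 2-fold higher, against 18.9%. Arg2, an arginase, had 492.2 TPM in the zygote against 245.0 in PB2. Tcstv1 had 308.7 and 150.5 TPM, and Tcstv3 158.0 and 67.6 TPM. Zscan4d had 8.6 and 0.7 TPM, Usp17lb 2.4 and 0.5 TPM and Usp17lc 1.8 and 0.4 TPM, so these differences rest on low values. The 1 higher gene, Usp17le, had 0.5 TPM in the zygote against 2.7 in PB2, which are low values too. Among the genes higher in PB2 but short of 2-fold, Sp110 had 198.2 TPM in the zygote against 394.5 in PB2 (log2 ratio 0.99). Zfp750 had 64.2 and 111.7 TPM (log2 ratio 0.79). Tcstv, Zscan4 and Usp17l genes belong to families of related copies, and how far their reads can be separated was not tested. Duxf3, a double homeobox factor of this stage, had 0.4 and 1.5 TPM.

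Marker lists were read in both libraries. PB2 and the zygote derive from the same egg, so these lists cannot tell which library is which. All 24 oocyte transcripts listed are in the table, with a sum of 119823 TPM in the zygote against 105309 in PB2, a median log2 ratio of -0.05, 2 genes at least 2-fold lower in PB2 (8.33%, against 8.09% of all genes) and 5 at least 2-fold higher (20.8%, against 18.9%). Of 20 cumulus and granulosa cell markers, 4 are in the table (Cyp19a1, Fshr, Star and Cyp11a1), 0 of the 3 compared were 2-fold apart, and the list summed to 74.7 TPM in the zygote against 76.4 in PB2. Most of that was Cyp19a1, the aromatase, with 72.2 and 70.9 TPM, and Cyp11a1 was listed at 0 in the zygote. Against the oocyte list, the Obox members held the lower median, -0.79, and the plot of the lists shows them on the zygote side of 0 without exception. Such a difference is not particular to them. The 2 lower oocyte transcripts were Dppa3 (log2 ratio -1.48) and Oog1 (-1.10), and Btg4 stood at -0.81, while 5 of that list were at least 2-fold higher.

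**Figure D5:**
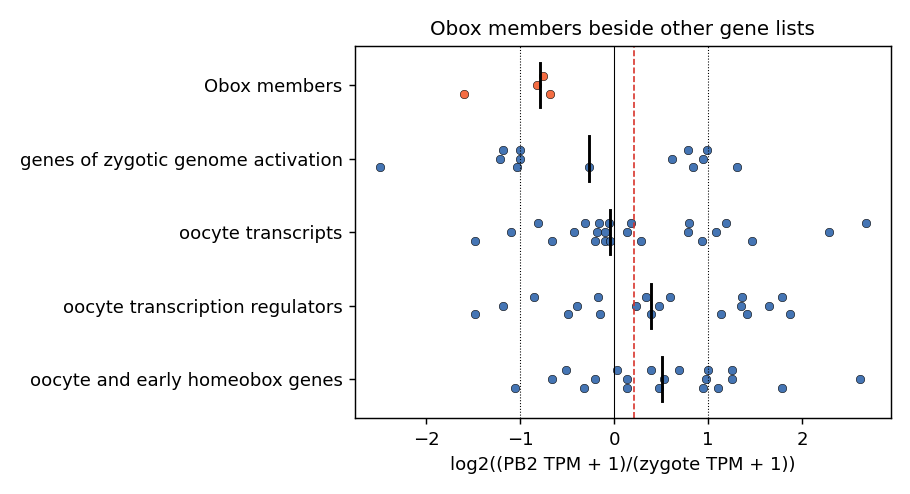
Log2 ratio of PB2 over zygote (x axis) of each gene compared, for the 4 Obox members (orange) and 4 other gene lists (blue), with the median of each as a black bar. Dotted lines mark 2-fold and the dashed line the median of all genes at 0.21. The Obox median is -0.79, and the homeobox list, which also holds Arid3a, has a median of 0.51. The lists were not matched for level.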

How the data were processed

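Poly(A) RNA was sequenced from 1 library of PB2 and 1 library of zygotes. Per the labels and the methods of the study, the authors aligned reads with HISAT2 2.0.4 and counted them per gene with HTSeq 0.6.1p1. DESeq2 1.18.1 is also named, and was used by the authors only. The methods name the rabbit assembly OryCun2.0. The submitters' processing notes name GRCm38 as well, and the table carries mouse Ensembl identifiers. The deposited values are TPM rounded to 1 decimal, and how they were made from counts is not given in the sources used here. The table's columns were matched to samples by name, and 0 were left over. The genes of the table sum to 927063 TPM (zygote) and 898326 TPM (PB2).

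Genes with at least 1 TPM in either library were compared by the log2 ratio with a pseudocount of 1, and 2-fold was the threshold for counts. With 1 library per group no test was possible. The genes named are the Obox members, the 3 genes nearest to the most abundant member, and up to 5 genes of each list in each direction with the highest TPM among those at least 2-fold apart. Nobox, Meis2, Duxf3, Zscan4c, Sp110, Zfp750 and the sixth of the lower genes of genome activation were added after their values were seen. So were the marker genes and the genes neighbouring the cluster. The members and lists were chosen with earlier results of these data known. Transcripts and positions came from GENCODE M21 (GRCm38), promoter windows from RefSeq (GRCm38.p6), where all 4 members matched by symbol. Loess trends used a span of 0.3. The trend removal was run on simulated libraries with a straight GC trend and little noise set in advance. That checks the code only, not how well the trend fits these data. Alternatives were other pseudocounts, filters, thresholds and scalings, removal of GC and length trends, and the rounding bounds. Python 3.11.15, pandas 2.3.3, statsmodels 0.14.6 and Biopython 1.88 were used.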

Additional observations from a re-analysis of the deposited data

How the results depend on the processing

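No paired analysis was possible because each group has 1 library. Of 73 values recomputed for 7 results, 70 stayed within the limits set (0.5 on the log2 scale, 1.5 times for a count), 3 moved and none changed sign. The filters cannot change a member's own log2 ratio, and at these levels pseudocounts and rounding bounds hardly can. Many of the 70 were therefore fixed in advance, and their number does not measure how firm the results are. The 3 that moved are counts of members at least 2-fold apart. Centring on the median of all genes gave 2 (Obox1 and Obox7) in place of 1, with 12.1% of all genes then at least 2-fold lower. A threshold of 1.5-fold gave 4 and of 4-fold 0, which follows from the thresholds.

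Over the alternatives the log2 ratio ranged from -1.03 to -0.64 for Obox1, -0.89 to -0.48 for Obox2, -0.97 to -0.52 for Obox5 and -1.80 to -1.38 for Obox7. The median of the members ranged from -1.17 to -0.58 and the log2 ratio of their sum from -0.998 to -0.79. The lowest median, -1.17, came from summing Obox1, Obox2 and Obox5, and is the midpoint of that sum and Obox7. Each of the summed members is at least 95% identical to both others over the aligned coding bases. Obox7 is 96.0% identical to Obox5 but under 95% to Obox1 and Obox2, and with it joined through Obox5 the value is that of the sum of all members, -0.79. This alternative and the sum of Obox1 and Obox2 were chosen after seeing the data. The planned grouping by protein identity was not run, and the members were kept in the scaling that leaves out the 50 most abundant genes. Depth is unknown, so counting error cannot be given.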

Other observations

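Apart from the members, 14 genes within 1 Mb of the Obox cluster were compared, with a median log2 ratio of 0.26, and 0 of them lie between the members. At least 2-fold lower in PB2 were 2 of the 14, against 8.09% of all genes compared. Selenow, a selenoprotein gene, had 725.0 TPM in the zygote against 344.0 in PB2, and Sult2a7, a sulfotransferase gene, had 4.6 TPM in the zygote and was listed at 0 in PB2. At least 2-fold higher were 4, against 18.9% of all genes, namely Bicra, a subunit of a chromatin remodeling complex, with 1.0 TPM in the zygote against 6.8 in PB2, Zfp541 with 8.5 and 36.7 TPM, Zc3h4 with 4.4 and 19.5 TPM and C5ar2 with 0.1 and 3.4 TPM.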
